A study of Mus musculus with 24 samples.

Results

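OT-I CD8+ T cells recovered from peripheral blood 4 days after transplantation (5 samples) were compared with the OT-I CD8+ T cells of the graft on day 0 (4 samples). These 9 samples, taken by their titles, are part of a series of 24 that also holds cells from liver, lung and small intestine on day 4 (5 samples each). Donors were of the OT-I line, C57BL/6-Tg(TcraTcrb)1100Mjb/J, whose transgenic T cell receptor recognises an ovalbumin peptide presented by H-2Kb. Recipients, called m-act OVA, were of the line C57Bl/6-Tg(CAG-OVA)-916Jen/J, in which the broadly active CAG promoter drives ovalbumin, so that antigen is present in nearly every tissue. Per the labels, all mice were female and 8 to 16 weeks old. Recipients received 11 Gy of whole-body irradiation in 2 doses of 5.5 Gy given 3 hours apart, followed by 3000000 bone marrow cells and 15000000 splenocytes, as a model of lethal acute graft-versus-host disease. CD45.1 was used as the mark of the OT-I cells, and the rest of the graft and the host were CD45.2. Transcripts of B cells and neutrophils lay high in the graft samples, as given below, so these samples cannot be taken as OT-I cells alone. Graft and blood samples alike were enriched with magnetic beads for CD45.1, the labels name no additional sort on CD8, and the design text calls the graft cells naive. The organ from which the graft samples were taken is not given in the labels. Irradiation, transfer, the time in an ovalbumin-bearing host and the tissue of origin all separate the blood samples from the graft and cannot be told apart. The labels call the transplant allogeneic, although both strains are on the C57BL/6 background.

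Each sample was 300 pg of RNA, amplified linearly in 2 rounds and hybridised to 1 one-colour Agilent array. Values are log2 of the deposited processed intensity minus the array's 75th percentile, so 0 is that percentile and a difference of 1 is a 2-fold difference. The scanning software flagged a mean of 30.4% ± 3.84 (SD, n = 4) of the gene probes as well above background on the graft arrays and 30.1% ± 5.04 (SD, n = 5) on the blood arrays. In the text, a probe called detected or above background carries this flag. One called below background only lacks the flag. Correlations across tested genes, which are not independent replicates, ran from 0.938 to 0.973 between graft arrays, from 0.892 to 0.970 between blood arrays and from 0.637 to 0.784 between a blood and a graft array. The 4 graft arrays lay on a slide of their own with its own scan day, and each blood array lay on a different one of the other 5 slides. Slide and group therefore cannot be told apart. Whether the samples came from separate animals is not stated in the sources used here, so the p-values reflect only the spread among the arrays, which may be technical.

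As background, a naive CD8+ T cell that meets its antigen enters the cell cycle, divides many times within days and acquires an effector programme. That programme includes granzymes and perforin for killing, interferon gamma, receptors for interleukin 2 and inhibitory receptors that restrain further signalling. Activated cells also switch their metabolism and protein synthesis towards growth, and change the homing receptors that decide which tissues they enter from the blood.

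Of 9499 genes tested, 5359 (56.4%) passed an adjusted p of 0.05 (Benjamini-Hochberg) in a limma model of all 24 arrays, 3349 higher in blood (35.3%) and 2010 lower (21.2%). The median difference over all tested genes was 0.28. A difference of at least 2-fold was seen in 4000 of the called genes (42.1% of those tested). The groups did not overlap in 5159 genes (54.3%): all 5 blood arrays lay above all 4 graft arrays in 3203 (33.7%) and below them in 1956 (20.6%). The split of calls depended on the scaling: 62.5% of called genes were higher as scaled here, 69.2% after normexp background correction, 51.8% after quantile normalisation and in the authors' deposited log2 table, 47.0% when the 75th percentile was taken over the 6502 probes detected on all arrays, and 39.2% when their median was used. The percentile over all probes lay 5.00 below that over detected probes on the blood arrays and 4.67 below it on the graft arrays, and the median over all genes moved from 0.28 to -0.05 and -0.34 under the last pair of settings, which lower the differences of all genes alike. List counts below are to be read against 35.3% higher, 21.2% lower and a median of 0.28. A gene well above background on no graft array, or on no blood array, was tested only through other groups. The direction of such a gene was largely fixed by that filter.

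The 10 genes with the highest differences among those whose blood and graft arrays did not overlap were Gzmb (7.88), Gldc (7.45), Lag3 (7.28), Ncaph (7.03), Tk1 (6.97), Rgs20 (6.81), Cdc20 (6.41), Ccnb1 (6.37), Dut (6.34) and Ccna2 (6.28). The 10 lowest were Camp (-9.35), Cd79a (-9.06), Ms4a1 (-8.48), S100a8 (-8.45), H2-Ab1 (-8.27), H2-Eb1 (-8.14), Il1b (-8.09), S100a9 (-7.85), Fcmr (-7.76) and Igh-VJ558 (-7.59). Apart from Rgs20, whose probe holds a dinucleotide repeat as given below, the first group holds effector, cell-cycle and amino acid genes. The second holds genes of B cells, neutrophils and antigen-presenting cells. Where a probe was well above background on no array of a group, the difference is also given as an "at least" fold against that group's detection limit, computed from the lowest signals well above background on its arrays. In the text, ± after a difference is its standard error in the fit, adjusted p is limma's with Benjamini-Hochberg adjustment over all 9499 genes unless another set is named, and n is 4 graft and 5 blood arrays throughout.

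The labelled cell type was checked against T cell genes. Both chains of the CD8 coreceptor, Cd8a and Cd8b1, were detected on each of the 9 arrays. Cd8a lay at 3.94, 3.66, 3.61 and 4.45 on the graft arrays and at 4.00, 4.47, 5.17, 5.19 and 4.27 on the blood arrays, a difference of 0.70 ± 0.46 that was not called (adjusted p = 0.198). Cd8b1 gave 0.75 ± 0.55 (adjusted p = 0.253), and the groups overlapped for both genes, which were called only with array weights (0.69 and 1.00). Cd3e, a signalling chain of the T cell receptor complex, ran from 5.02 to 5.78 in the graft and from 5.86 to 6.38 in blood, without overlap (difference 0.95 ± 0.30, adjusted p = 0.0103). Its call was lost when arrays were scaled to detected probes (0.62 with their 75th percentile and 0.33 with their median). Ptprc, which encodes CD45, differed by -0.33 ± 0.45 and was not called (adjusted p = 0.551), except when scaled to the median of detected probes (-0.95).

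Transcripts of B cells, plasma cells and myeloid cells were present in the graft samples and mostly lower in the blood samples. Of 16 tested B cell markers (19 listed), 15 were lower, against 21.2% of all tested genes, and none was higher. Their median difference was -5.36. The summed level of the list, in multiples of the array's 75th percentile, ran from 359 to 451 on the graft arrays and from 29.2 to 41.7 on the blood arrays, and 11 of the 16 were well above background on no blood array. Ms4a1, which encodes CD20, lay at 5.57, 5.67, 5.98 and 5.31 in the graft and at -1.87, -2.52, -3.34, -3.48 and -3.00 in blood, where no array rose above background (at least 233-fold lower, adjusted p = 8.62e-12). Cd79a, a chain of the B cell receptor, was at least 279-fold lower. All 5 tested plasma cell markers were lower, among them Jchain, the joining chain of secreted antibodies, by at least 124-fold. Of these 5, 3 were well above background on no blood array. For these 3 and the 11 B cell markers the filter largely fixed the direction.

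Myeloid genes behaved alike. Of 13 tested neutrophil markers, 11 were lower (median -5.40), with a summed level of 478 to 620 in the graft and 77.9 to 111 in blood. On no blood array well above background were 8 of the 13, so the filter largely fixed their direction. Camp, a granule peptide of neutrophils, was at least 364-fold lower and Il1b, an inflammatory cytokine of myeloid cells, at least 169-fold lower. S100a8, a calcium-binding protein abundant in neutrophils, lay at 7.08, 6.81, 6.26 and 6.43 in the graft and at -2.10, -2.64, -3.62, 0.50 and -1.19 in blood, where blood array 4 was the highest and the only one well above background. Of 10 monocyte and macrophage markers, 5 were lower (median -2.34, summed level 112 to 160 against 22.8 to 62.7). Csf1r, the receptor that macrophages need for survival, was at least 51.1-fold lower. In the list of 13 dendritic cell and MHC class II members, 9 were lower (median -2.31, summed level 332 to 389 against 69.4 to 86.9). The same limit holds for 4 of the 10 monocyte and macrophage markers and 1 of these 13, well above background on no blood array.

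Lists of other cells differed less evenly. Erythroid genes ranged widely within the graft: the summed level of the 6 tested was 10.8 to 384 there and 2.63 to 15.2 in blood, with 4 lower and 1 higher. Hba-a1, an alpha globin, lay at 0.85, 6.56, 1.41 and 3.85 in the graft, highest on arrays 2 and 4, and at -0.08, -1.29, -0.55, -0.71 and -1.22 in blood. Without graft array 2 the erythroid median moved from -2.87 to -2.04, and without graft array 1 to -3.41. Of 7 NK cell markers, 5 were lower and 1, Gzma, which T cells also express, was higher (median -1.82, summed level 60.7 to 148 against 103 to 118). Cd4 differed by -0.78 ± 0.24 (adjusted p = 0.00846) and Foxp3, of regulatory T cells, by -0.96 ± 0.38 (adjusted p = 0.0366), a call lost without graft array 2 or 3 or blood array 3, 4 or 5 (-0.91 to -0.79) and in 4 other alternatives, among them normexp (-0.45). Of the 8 CD4 T cell markers 3 were lower, and the 1 that was higher, Icos, is also an activation gene. The summed level of that list was higher in blood, 47.8 to 69.2 against 12.8 to 41.0. Platelet (3 lower and 1 higher of 5), endothelial (1 and 1 of 5) and mast cell, basophil and eosinophil markers (1 lower of 2) were tested in small numbers. The summed platelet level ran from 9.41 to 17.8 in the graft and from 15.4 to 25.5 in blood. In bulk samples such as these, fewer cells of a type and less RNA per cell cannot be told apart, and the part that these other cells had in the differences described below was not tested.

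**Figure D1:**
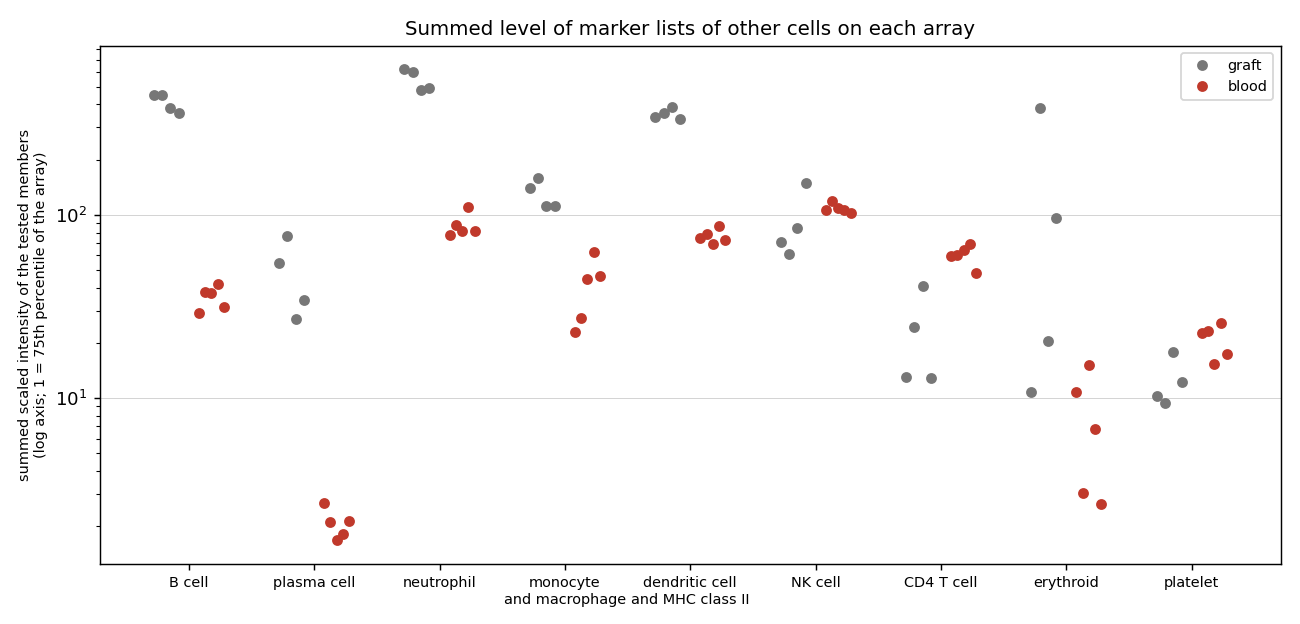
Summed scaled intensity (log axis, 1 is the 75th percentile of the array) of the tested members of marker lists of other cells, 1 point per array for 4 graft (grey) and 5 blood (red) arrays. The B cell, neutrophil and dendritic cell lists separate fully, with 359 to 451, 478 to 620 and 332 to 389 in the graft against 29.2 to 41.7, 77.9 to 111 and 69.4 to 86.9 in blood.

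Probes that hold a dinucleotide repeat shifted as blocks, a pattern that was looked at after the values were seen. Of 117 tested probes with at least 5 GT units in a row, 109 were lower in blood and 1 was higher (median -2.57), although they represent 110 different genes. For 95 of them the profile over the 24 arrays correlated above 0.95 with the median profile of the class. The class median ran from 6.70 to 7.50 on the graft arrays and from 3.10 to 4.62 on the blood arrays. Probes with the complementary AC run went the opposite way, 26 of 36 higher and 1 lower (median 1.29). AG runs were lower in 20 of 24 (1 higher, median -3.28), CT runs higher in 11 of 12 (median 2.76), and AT runs mixed, with 3 higher and 2 lower of 9 (median -0.09). Rgs20, among the 10 highest genes above, is represented by a CT-run probe.

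Tnfrsf9, which encodes the costimulatory receptor 4-1BB, had 1 probe of each kind, so bases 31 to 60 of both probes are shown, with the GT run in capitals and mm9 coordinates (plus strand) of the whole probe.
Tnfrsf9 with run, chr4:150319582-150319641: taaaatcaGTGTGTGTGTGTGTGTGTGTGT
Tnfrsf9 without run, chr4:150319101-150319160: taacatatttgtctttaccttttttaaatc
The probe with 11 GT units lay at 6.83, 7.17, 7.71 and 7.20 in the graft and at 4.47, 4.14, 2.36, 2.97 and 4.27 in blood (difference -3.59 ± 0.45, adjusted p = 9.65e-07). The probe without a run lay at -2.62, -2.89, -3.36 and -2.63 in the graft, on no array above background, and at 2.27, 2.99, 4.08, 3.17 and 3.04 in blood, a difference of 5.98 ± 0.47 (adjusted p = 2.33e-09 in a limma fit by probe, adjusted over all tested probes). The direction for Tnfrsf9 is therefore that of the probe chosen. Il15ra, the interleukin 15 receptor chain, was represented by a probe whose bases 26 to 55 hold a run of 8 units.
Il15ra, chr2:11655416-11655475: tatgtatGTGTGTGTGTGTGTGTatgtaaa
Its difference of -3.53 lay among those of its probe class. Listed genes such as Il4ra, Psme3 and Slc1a4 (GT), Snap23 (AC), Gbp6 (AG) and Ikzf4 (CT) were also measured by such probes, and list counts are given without them where they change by more than a gene or the median moves by over 1.5 times. What makes these probes move together was not tested.

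Most genes of the cell cycle were higher in blood. Of 36 tested mitosis genes, 31 were higher and none was lower, with a median difference of 2.83. Of 34 DNA replication genes, 28 were higher and 2 lower (median 2.20). Among 19 cyclins, cyclin-dependent kinases and their inhibitors, 14 were higher and 1 lower (median 2.48), and among 24 nucleotide and folate enzymes 18 were higher and 3 lower (median 1.64). No scaling turned the sign of these 4 medians. On no graft array well above background were 12 of the mitosis genes, 7 of the replication genes, 3 of the cyclin list and 3 of the enzymes. These were tested only through day 4 arrays, so the filter largely fixed their direction. The mitosis list holds 46 genes and the replication list 42, and the rest passed the filter in no group.

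Replication licensing and fork genes came first. Mcm2, a subunit of the MCM helicase that opens DNA at origins, lay at -2.50, -2.70, -3.24 and -2.60 on the graft arrays, all below background, and at 2.40, 3.12, 3.31, 2.92 and 3.50 on the blood arrays. It was at least 21-fold higher (adjusted p = 4.17e-08). Mcm5, another helicase subunit, was detected in both groups, at 1.01, 1.66, 1.09 and 1.04 in the graft and at 2.49, 3.93, 3.93, 3.45 and 3.77 in blood, without overlap (difference 2.31 ± 0.32). Gins1, of the GINS complex that travels with the helicase, was at least 19.5-fold higher, Pola1, of the polymerase that makes primers, at least 11.4-fold and Pole, the leading-strand polymerase, at least 24.3-fold higher. Pcna, the sliding clamp, rose by 2.25 ± 0.34, from a graft range of 2.74 to 3.29 to a blood range of 4.66 to 5.77. The 2 replication genes that were lower, Gins2 (-0.62 ± 0.24, adjusted p = 0.0351) and Gins3 (-1.32 ± 0.53, adjusted p = 0.0388), belong to the same complex as Gins1. Both of these calls were lost in several alternatives: Gins2 kept its call in 13 of 24 and Gins3 in 14 of 24, and leaving out single arrays ended them. Gins2 lost its call without any 1 graft array or blood array 2, 3 or 4 (-0.65 to -0.48), and Gins3 without any 1 array except graft array 2 (-1.37 to -1.19).

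Enzymes that supply deoxynucleotides gave large differences. Dut, which removes dUTP, lay at -2.79, -1.89, -2.83 and -2.78 in the graft and at 3.64, 3.58, 3.85, 3.67 and 4.12 in blood, at least 34.6-fold higher (adjusted p = 8.62e-12). The ribonucleotide reductase subunits Rrm1 and Rrm2 rose by 3.94 ± 0.30 and 6.00 ± 0.50. Rrm2 was above background on 1 of 4 graft arrays and on all 5 blood arrays. Tk1, thymidine kinase, was at least 64.9-fold higher by the probe with the stronger signal, but its second probe differed by -0.20. Tyms, thymidylate synthase, went against the list with -1.03 ± 0.37 (adjusted p = 0.0231), as did Gmps (-1.21 ± 0.31) of purine synthesis and Cad of pyrimidine synthesis, which ran from 0.25 to 0.56 in the graft and from -1.17 to -0.27 in blood (adjusted p = 0.00144). Without blood array 3 the Tyms call was lost at -0.83, without graft array 2 at -0.99 and without graft array 3 at -0.86, and it was also lost after quantile normalisation (-0.93).

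Several mitotic genes were below background on most graft arrays. Ncaph, a condensin subunit that compacts chromosomes, lay at -2.73, -2.88, -3.39 and -2.76 in the graft and at 3.55, 4.26, 4.32, 4.12 and 4.23 in blood, at least 43.3-fold higher (adjusted p = 1.05e-10). Ccnb1, the cyclin that drives entry into mitosis, was at least 29.7-fold higher, and the checkpoint kinase Bub1 at least 8.98-fold. Cdc20, the activator of the anaphase-promoting complex, lay at -1.92, 1.11, -3.36 and -0.32 in the graft and at 5.47, 5.58, 5.19, 4.67 and 5.50 in blood (difference 6.41 ± 0.57). Graft array 2 was the highest graft array for Cdc20, Aurka, Rrm2, Ccna2 and Mki67, and still lay below every blood array for all of these except Mki67. Mki67, the proliferation antigen, was not called (2.10 ± 0.94, adjusted p = 0.0595): blood arrays 1 and 2 stood at 5.64 and 5.89, while the other 3 lay from 2.08 to 2.77, around the highest graft array at 2.75. It was called in 7 of 24 alternatives, among them without blood array 4 (2.53) and without blood array 5 (2.44).

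Cyclins and regulators did not all move. Ccna2, the S and G2 phase cyclin, rose by 6.28 ± 0.56 and Mybl2, a transcription factor of cycling cells, by 4.74 ± 0.45. The kinase gene Cdk4 rose by 2.48 ± 0.24, with 2.93 to 3.06 in the graft and 5.03 to 5.73 in blood, and E2f1, which activates S phase genes, by 2.62 ± 0.26. The D cyclins Ccnd2 (0.23 ± 0.45) and Ccnd3 (0.38 ± 0.40), which pair with Cdk4, were not called. Cdkn1b, the inhibitor p27, fell by 0.94 (adjusted p = 0.00893), a call lost after normexp background correction (-0.35). Chromatin genes of cycling cells accompanied them, with 14 of 18 higher and 1 lower (median 1.61, or 0.99 with 11 higher and 3 lower when scaled to the median of detected probes). Uhrf1, which maintains DNA methylation at replication, rose by 2.81 ± 0.30, Ezh2, the Polycomb methyltransferase, by 3.01 ± 0.43, and Hmgb3, a chromatin-binding protein, was at least 33.6-fold higher.

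Promoter sequence was described for these lists because E2F sites, the cell-cycle homology region (CHR) and CCAAT boxes are textbook elements of cell-cycle promoters. The 250 bases before each start site (RefSeq, GRCm38.p6) were searched on both strands for TTCCCGC or TTGGCGC (E2F), TTTGAA (CHR) and CCAAT. Of the 24 DNA replication promoters matched (of 34 genes), 41.7% held an E2F word and 66.7% a CCAAT. Of the 30 mitosis promoters matched (of 36), 33.3% held a CHR word and 80% a CCAAT. Among all 27025 promoters of the table the shares were 6.45% for E2F, 18.3% for CHR and 37.5% for CCAAT, and among the 7311 matched genes that were tested they were 11.5%, 13.6% and 40.3%. Mitosis genes had an E2F share of 13.3%, and DNA replication genes a CHR share of 16.7%. In the order E2F, CHR and CCAAT, nucleotide and folate enzymes had 19%, 4.76% and 38.1%, and the cyclin list 25%, 18.8% and 50%. Lists outside the cell cycle varied, with 27.8%, 11.1% and 38.9% in glycolysis and 13.1%, 8.2% and 41% in respiratory chain genes. Mitochondrial ribosomal proteins had 11.1%, 17.5% and 36.5%, and T cell receptor signalling genes, 25 of 31 matched, 0%, 16% and 28%.

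The 4 promoter stretches printed here, chosen after the word positions were seen, end at the base before the start site. They run 5' to 3' on the gene's strand, with words in capitals.
Mcm5, chr8:75109329-75109508, plus strand: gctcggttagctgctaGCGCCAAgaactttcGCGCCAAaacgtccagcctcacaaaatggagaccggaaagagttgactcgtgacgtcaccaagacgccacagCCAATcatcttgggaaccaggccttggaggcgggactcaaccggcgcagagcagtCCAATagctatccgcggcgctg
Mcm6, chr1:128359706-128359835, minus strand: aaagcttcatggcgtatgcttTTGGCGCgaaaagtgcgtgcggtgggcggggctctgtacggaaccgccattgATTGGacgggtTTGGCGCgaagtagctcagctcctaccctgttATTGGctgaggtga
Ccnb2, chr9:70421555-70421734, minus strand: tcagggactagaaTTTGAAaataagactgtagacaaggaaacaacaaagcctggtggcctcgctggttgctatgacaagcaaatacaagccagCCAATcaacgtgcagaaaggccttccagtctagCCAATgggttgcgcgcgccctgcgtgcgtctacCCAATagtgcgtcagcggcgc
Cdc20, chr4:118437344-118437423, minus strand: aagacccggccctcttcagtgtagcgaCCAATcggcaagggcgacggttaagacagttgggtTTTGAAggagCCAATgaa
Mcm5 and Mcm6 each hold 2 E2F words (first bases at -164 and -149, and at -109 and -46, counted from the start site) and 2 CCAAT boxes. Ccnb2 holds a CHR word at -167 and CCAAT boxes at -87, -54 and -21, and Cdc20 a CHR word at -18 with CCAAT boxes at -53 and -8. Mcm6, a helicase subunit, was 2.21 ± 0.25 higher in blood and Ccnb2, a B-type cyclin, 5.89 ± 0.51 higher (adjusted p = 3.3e-07 and 8.32e-09). A word match describes sequence and does not show that a factor binds there.

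**Figure D2:**
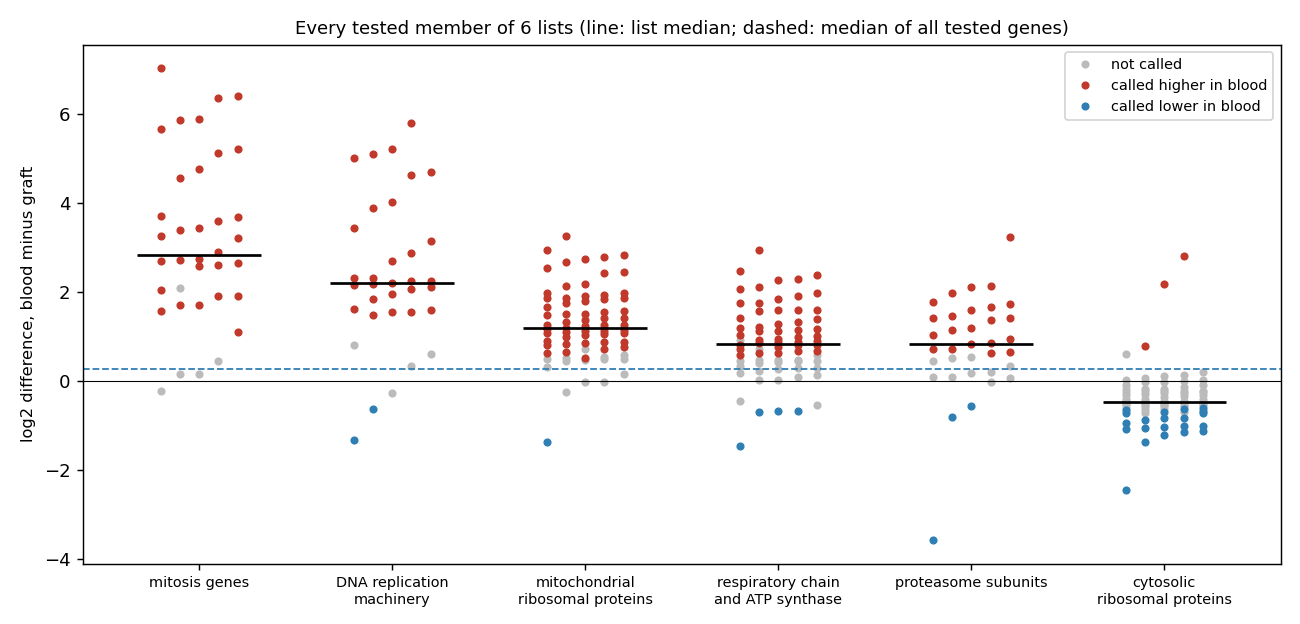
Log2 difference, blood minus graft, of every tested member of 6 lists (points, red called higher, blue called lower, grey not called), with the list median as a black bar and the median of all tested genes, 0.28, as a dashed line. Mitosis (median 2.83) and DNA replication genes (2.20) lie highest, mitochondrial ribosomal proteins (1.19) lie above the dashed line, and cytosolic ribosomal proteins (-0.46) below it.

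Genes of killing were given by 3 lists. Of 9 tested lytic granule genes (15 listed), 5 were higher and 1 lower, with a median of 1.12. The higher count depended on the scaling, with 2 of 9 higher under both scalings to detected probes (medians 0.78 and 0.49), 4 after quantile normalisation and 7 after normexp. Gzmb, the granzyme that cleaves caspases in target cells, lay at -2.70, -2.83, -2.91 and 0.67 on the graft arrays, where only array 4 was above background, and at 5.73, 6.19, 6.51, 6.28 and 5.01 on the blood arrays. The groups did not overlap (difference 7.88 ± 0.70, adjusted p = 1.2e-08). Its probe lies at chr14:56877916-56877975 (mm9). Gzma, a tryptase-like granzyme, was already at 5.07, 4.50, 5.84 and 6.82 in the graft and reached 6.66, 6.84, 6.62, 6.67 and 6.58 in blood, so graft array 4 overlapped the blood range (difference 1.12 ± 0.35, adjusted p = 0.0107). The Gzma call was lost without graft array 2 (0.76) and under both scalings to detected probes (0.78 and 0.49). Gzmm, a granzyme known from NK cells and other innate-like lymphocytes, fell by 4.10, from 4.55, 4.93, 2.82 and 3.20 to -0.09, -0.10, -0.48, -1.16 and 0.69 without overlap (adjusted p = 2.29e-06).

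Prf1, which forms the pore through which granzymes enter, differed by 1.48 ± 0.59 (adjusted p = 0.0369) and was above background on 1 graft array and 5 blood arrays. Blood array 5 at -0.28 lay within the graft range of -1.68 to -0.02. Its call was lost in 10 of 24 alternatives: under both scalings to detected probes (1.15 and 0.86), after quantile normalisation and in the deposited table (1.45 in both), with no filter on dim probes, with slide as a random block, and without graft array 2 or 3 or blood array 3 or 4 (1.36, 1.20, 1.21 and 1.35). Ctsc, the protease that activates granzymes, rose by 1.97 ± 0.42. In the granule exocytosis list 4 of 7 were higher and 1 lower (median 1.39, or 0.38 with 3 higher and 1 lower when repeat-run probes are left out). Unc13d, which primes granules for fusion, rose by 3.54 ± 0.88 and Vamp8 by 1.77 ± 0.34, whereas Stx7, a syntaxin of endosomes, fell by 3.60 (adjusted p = 4.58e-06).

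Death ligands and the serpins that shield killer cells from their own granzymes were higher in 4 of 5 (median 2.58). Serpinb9, an inhibitor of granzyme B, lay at -2.51, -2.73, -3.27 and -2.61 in the graft, below background, and at 0.82, 2.09, 3.41, 2.87 and 1.10 in blood (at least 10.6-fold higher). Serpinb6b, of the same clade, rose by 5.27 ± 0.46 (adjusted p = 1.1e-08). Fasl, the ligand of the death receptor Fas, lay at -0.65, -0.81, -0.56 and -0.71 in the graft and at 1.84, 1.80, 2.22, 1.01 and 2.63 in blood (difference 2.58 ± 0.51).

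Cytokines did not move as a group: 2 of 8 were higher and 1 lower, and the median was -0.04, a sign that changed under quantile normalisation (0.02), normexp (0.30) and without blood array 4 (0.04). With the median of detected probes 3 were lower. Ifng, the main macrophage-activating cytokine of effector T cells, lay at -1.46, -2.70, -3.25 and 1.42 in the graft, above background only on array 4, and at 4.04, 5.30, 4.72, 2.69 and 3.49 in blood, without overlap (difference 5.54 ± 0.74, adjusted p = 2.17e-06). Ltb, which encodes lymphotoxin beta, rose by 1.65 ± 0.41. Tnf fell by 1.27 (adjusted p = 0.00634), with 0.05, -0.23, 0.08 and 0.39 in the graft and -0.67, -0.78, -1.91, -1.48 and -1.16 in blood. Thus 3 members moved in different directions and the other 5 were not called.

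Chemokines had a median of -1.35, with 1 of 6 higher and 3 lower (1 lower and a median of -0.86 after normexp). Xcl1, which attracts cross-presenting dendritic cells, rose by 2.12 ± 0.51, although blood array 4 at 1.75 lay within the graft range of 0.55 to 2.06. Ccl5, made by memory and effector T cells, lay at 6.90, 7.19, 6.80 and 7.10 in the graft and at 4.87, 5.20, 6.59, 6.16 and 4.77 in blood, and its difference of -1.48 ± 0.60 passed narrowly (adjusted p = 0.039). The Ccl5 call was lost on leaving out any single graft array or blood array 1, 2 or 5 (-1.54 to -1.29) and in 3 other alternatives, among them normexp (-0.94). Cxcl10, an interferon-induced chemokine, fell by 3.27 (adjusted p = 0.00145), and Ccl3 and Ccl4 were not called (-0.71 ± 0.87 and -1.23 ± 0.61), although Ccl4 was called lower in 5 of 24 alternatives, among them both scalings to detected probes (-1.57 and -1.85).

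**Figure D3:**
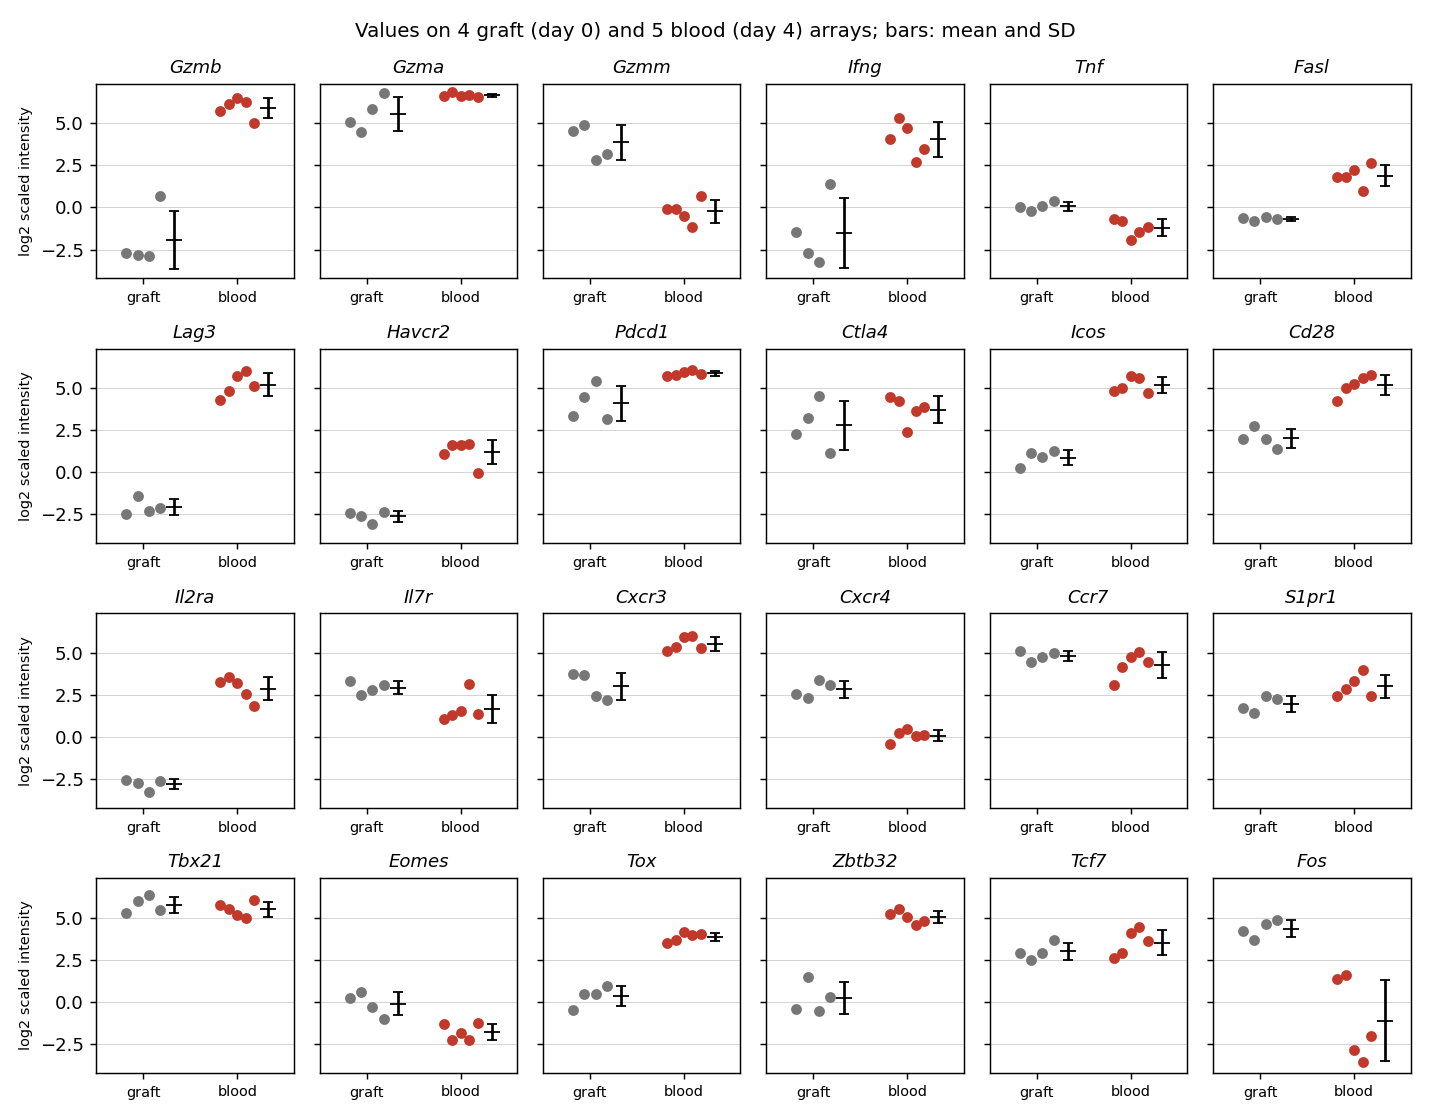
Log2 scaled intensity of 24 genes on each of 4 graft (grey) and 5 blood (red) arrays, with bars for mean and SD. Gzmb, Lag3, Il2ra, Icos and Zbtb32 lie fully higher in blood, Gzmm, Cxcr4, Eomes and Fos fully lower, and Ccr7, Il7r, Tbx21, Tcf7 and Ctla4 overlap.

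Inhibitory receptors were higher in 6 of 13 and lower in none, with a median of 0.95 (0.33, with 5 higher and 1 lower, when scaled to the median of detected probes). On no graft array well above background were 4 of the 13, and the filter largely fixed the direction of these. Lag3, which binds MHC class II and restrains activated T cells, lay at -2.49, -1.41, -2.31 and -2.12 on the graft arrays, all below background, and at 4.28, 4.85, 5.73, 6.00 and 5.14 on the blood arrays. It was at least 93.2-fold higher (adjusted p = 1.05e-10). Havcr2, which encodes TIM-3, was at least 5.82-fold higher and Tigit at least 5.24-fold higher. Pdcd1, which encodes PD-1, was detected in every graft sample at 3.35, 4.48, 5.41 and 3.15 and lay closely together in blood at 5.72, 5.82, 5.97, 6.06 and 5.84 (difference 1.78 ± 0.38, adjusted p = 0.000524). Ctla4 spread over 1.14 to 4.52 in the graft and 2.42 to 4.48 in blood and was not called (0.95 ± 0.54, adjusted p = 0.14), but was called without graft array 3 (1.53), after normexp (1.02) and with array weights (1.11). The list median was 1.45 without graft array 3 and 0.54 without graft array 4.

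Costimulatory receptors and ligands had 7 of 15 higher and 3 lower with a median of -0.01, and 8 higher and 2 lower with a median of 1.50 when repeat-run probes were left out. After quantile normalisation 6 were higher and 6 lower. Icos, the inducible costimulator, lay at 0.26, 1.13, 0.89 and 1.25 in the graft and at 4.83, 4.99, 5.76, 5.62 and 4.70 in blood, without overlap (difference 4.30 ± 0.50, adjusted p = 4.8e-07). Cd28, the costimulator of naive T cells, rose by 3.15 ± 0.48 and Tnfrsf4, which encodes OX40, by 3.09 ± 0.55. Cd40lg, the CD40 ligand more typical of CD4 T cells, fell by 1.06. Cd86, a ligand found on antigen-presenting cells, was at least 3.23-fold lower. Cd86 went in the same direction as the antigen-presenting cell markers given above, and a link was not tested.

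Receptor chains for interleukins and interferons were higher in 8 of 17 and lower in 4 (median 0.80), or lower in 2 when repeat-run probes were left out (median 0.96), and higher in 5 under both scalings to detected probes (medians 0.46 and 0.18). Il2ra, the chain that gives the interleukin 2 receptor its high affinity, lay at -2.57, -2.69, -3.24 and -2.61 in the graft, below background, and at 3.26, 3.57, 3.23, 2.56 and 1.86 in blood, at least 18.9-fold higher (adjusted p = 3.09e-07). The signalling chain Il2rb rose by 1.27 ± 0.25 and Il1rl1, the interleukin 33 receptor, was at least 10.7-fold higher. Il7r, the survival receptor of resting T cells, was not called (-1.25 ± 0.82, adjusted p = 0.197): blood array 4 at 3.14 lay within the graft range of 2.51 to 3.36 while the other 4 blood arrays lay from 1.11 to 1.56. It was called lower in 4 of 24 alternatives, among them the median of detected probes (-1.87). Tgfbr2 fell by 1.01, and Il1r2, a decoy receptor of myeloid cells, by 3.25. Of 14 JAK, STAT and SOCS genes, 4 were higher, a share below the 35.3% of all tested genes, and none was lower. Stat5a, which carries the interleukin 2 signal, rose by 3.86 ± 0.47 and Jak3 by 2.05 ± 0.41, while Jak1 and Jak2 were not called (0.19 ± 0.61 and 0.44 ± 0.48). The list median of 0.47 turned negative when scaled to the median of detected probes (-0.16) and after quantile normalisation (-0.15), each with 2 members higher.

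Homing receptors moved in both directions, with 2 of 12 chemokine and egress receptors higher and 4 lower (median -0.20, but 0.06 after normexp and 0.09 without graft array 4, with 1 higher under both scalings to detected probes and after quantile normalisation). Cxcr3, which guides effector cells to inflamed tissue, lay at 3.77, 3.68, 2.48 and 2.23 in the graft and at 5.14, 5.35, 5.98, 6.02 and 5.33 in blood, without overlap (difference 2.52 ± 0.60, adjusted p = 0.00132). Cxcr4, the receptor for a marrow chemokine, lay at 2.54, 2.33, 3.40 and 3.09 in the graft and at -0.41, 0.24, 0.47, 0.10 and 0.11 in blood and was 2.74 lower. Ccr9, the gut-homing receptor, fell by 2.98 (adjusted p = 0.0064) with a wide spread: blood arrays 1 and 2 were at -2.07 and -2.14, and blood arrays 3, 4 and 5 at 1.35, 1.71 and 0.09. Cxcr5, typical of B cells and follicular T cells, fell by 2.83. Cxcr6, of tissue-resident effector cells, differed by 1.82 ± 0.75 (adjusted p = 0.0421) and kept its call in only 13 of 24 alternatives. It was lost without graft array 1, 2 or 3 or blood array 3 or 4 (1.53 to 1.91).

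Receptors for entry to and exit from lymph nodes, usually high in naive T cells, were not called lower. Ccr7, the receptor for lymph node entry, lay at 5.11, 4.45, 4.78 and 5.03 in the graft and at 3.09, 4.16, 4.76, 5.07 and 4.48 in blood and was not called (-0.53 ± 0.53, adjusted p = 0.403). S1pr1, needed to leave lymphoid organs, had every blood array at or above every graft array but was not called (1.05 ± 0.72, adjusted p = 0.214), although it was called higher in 3 of 24 alternatives, among them normexp (1.17). In the list of naive surface and quiescence genes, 4 of 15 were lower and 1 higher (median -0.50, or -0.23 without blood array 1). With the median of detected probes 9 were lower (median -1.12), and after normexp 3 were lower and 3 higher (median -0.11). The lower ones included Il6ra (-3.69 ± 0.89) and Nsg2 (-1.60 ± 0.38), and the higher one was Cd27 (1.75 ± 0.46). Ccr7 was called lower only when scaled to the median of detected probes (-1.15).

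Integrins moved in both directions, 5 of 12 higher and 3 lower (median 0.16, negative when scaled to detected probes, with 1 lower after normexp). The LFA-1 chains Itgal and Itgb2, used to cross vessel walls, rose by 1.64 ± 0.33 and 1.75 ± 0.34, and the VLA-4 chains Itga4 and Itgb1 by 1.59 ± 0.41 and 1.91 ± 0.52. Itga4 lay at 3.62 to 4.02 in the graft and at 5.29 to 5.50 in blood, without overlap. Itga5, a fibronectin receptor chain, fell by 1.14, and Itgb7, the partner of Itga4 for gut homing, was not called (0.43 ± 0.28), although it was in 5 of 24 alternatives, among them quantile normalisation (0.69) and normexp (0.87). Among selectin ligand genes 2 of 10 were higher and 2 lower (median -0.17, or -0.05 without graft array 4). Under scaling to detected probes none was higher and 4 or 6 were lower (medians -0.51 and -0.79), after quantile normalisation none and 5 (-0.34), and after normexp 3 and 2 (0.16). Among them was St8sia1, a ganglioside sialyltransferase, which was at least 7.56-fold lower.

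Transcription factors of effector cells were higher in 8 of 17 and lower in 1 (median 1.21, or 0.55 after normexp). Of the 17, 3 were well above background on no graft array and 1 on no blood array. The filter largely fixed the direction of these. Zbtb32, a repressor induced on lymphocyte activation, lay at -0.43, 1.52, -0.55 and 0.33 in the graft and at 5.24, 5.55, 5.08, 4.61 and 4.81 in blood, without overlap (difference 4.84 ± 0.45, adjusted p = 1.88e-08). Tox, known from persistently stimulated T cells, rose by 3.52 ± 0.49 with blood arrays between 3.54 and 4.14. The AP-1 partner Batf rose by 2.49 ± 0.35 and Nfil3 by 2.02 ± 0.43. Tbx21, which encodes T-bet, was high in both groups, at 5.29 to 6.38 in the graft and 5.03 to 6.07 in blood, and was not called (-0.26 ± 0.31, adjusted p = 0.49), except when scaled to the median of detected probes (-0.88). Eomes, its relative in memory cells, was lower and above background on no blood array (at least 3.03-fold, adjusted p = 0.000592). Prdm1, which encodes Blimp-1, lay fully higher in blood but was not called (1.21 ± 0.68, adjusted p = 0.134), except in a fit of the 9 arrays alone (1.21).

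Factors of naive and memory cells had 3 of 17 higher and 5 lower, and a median of 0.53 that turned negative when scaled to the median of detected probes (-0.10, with 1 higher) and after quantile normalisation (-0.06). The median was 0.35 without graft array 2 and 0.30 without blood array 4. Tcf7, which encodes TCF-1, lay at 2.92, 2.48, 2.95 and 3.72 in the graft and at 2.61, 2.94, 4.10, 4.44 and 3.62 in blood and was not called (0.53 ± 0.56, adjusted p = 0.438). Klf2, which maintains quiescence and homing, fell by 1.15 (adjusted p = 0.019), a call that was lost without graft array 3, graft array 4 or blood array 3 (-1.03, -1.06 and -0.96) and after normexp (-0.67). Ikzf1, which encodes Ikaros, and Bcl11b, a factor of T cell identity, rose by 1.76 ± 0.48 and 1.00 ± 0.26, and Bcl11b lost its call under both scalings to detected probes (0.67 and 0.38).

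T cell receptor signalling genes were higher in 14 of 31 and lower in 2 (median 0.84). Of the 31, 3 were well above background on no graft array, so the filter largely fixed their direction. Higher and lower counts were 9 and 3 with the 75th percentile of detected probes (median 0.50), 8 and 6 with their median (0.22) and 10 and 3 after quantile normalisation (0.47). Inhibitors of the pathway were among those that rose: Cblb, a ubiquitin ligase that dampens signalling, by 2.13 ± 0.39, Dgkz, which removes diacylglycerol, by 1.69 ± 0.26, and Ubash3a, a phosphatase-like suppressor, by at least 1.62-fold. Rasgrp1, which activates Ras downstream of the receptor, lay at 1.25, 1.03, 1.72 and 2.86 in the graft and at -1.92, -2.59, -1.81, -0.86 and -3.07 in blood, a fall of 3.77 (adjusted p = 5.92e-05). With no filter on dim probes its difference was -0.50 and not called. Lat, the adaptor of the pathway, fell by 0.61 (adjusted p = 0.0273) and kept its call in 17 of 24 alternatives. It was lost without graft array 3 or 4 or blood array 3 or 4 (-0.43, -0.51, -0.56 and -0.57) and in 3 other alternatives, among them normexp (-0.14). Of 7 killer lectin-like receptors 2 were higher and 1 lower (3 lower with the median of detected probes), with Klrc1 (NKG2A) and its partner Klrd1 (CD94) rising by 2.86 ± 0.42 and 2.16 ± 0.47.

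Immediate-early genes, which respond within minutes to stimulation, were lower in 12 of 19 and higher in none (median -1.22, negative under every scaling). Jun lay at 4.08, 3.84, 4.86 and 4.75 in the graft and at 0.95, 1.17, -0.16, 0.13 and 0.05 in blood, without overlap (difference -3.95 ± 0.36, adjusted p = 1.53e-08). Fos, its partner in AP-1, lay at 4.26, 3.71, 4.63 and 4.89 in the graft, at 1.35 and 1.59 on blood arrays 1 and 2 and at -2.86, -3.58 and -2.00 on blood arrays 3, 4 and 5 (difference -5.47 ± 0.87, adjusted p = 2.12e-05). Egr1 fell by 4.00 and Ier2 by 2.04. Of the MAP kinase phosphatases, Dusp1, itself an early-response gene, fell by 2.79, whereas Dusp4 and Dusp10 were at least 7.47-fold and 4.13-fold higher and Dusp2 was not called (-0.08 ± 0.25), except when scaled to the median of detected probes (-0.71). Among 13 NF-kappaB genes 1 was higher and 3 lower (median -0.12, but 0.12 after normexp and 0.01 without blood array 5, and 6 lower with the median of detected probes). Nfkbid and Nfkbiz, both nuclear members of the inhibitor family, fell by 2.47 and 1.47. The labels give no time between taking the tissue and lysis of the cells.

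Interferon-stimulated genes were lower in 9 of 22 and higher in 2, with a median of -0.09 that was 0.24 after normexp, with 5 higher, and 0.06 without graft array 3. Isg15, a ubiquitin-like modifier, lay at 2.30, 2.79, 3.76 and 3.68 in the graft and at 0.99, 0.50, 0.83, 0.62 and 1.45 in blood (difference -2.25 ± 0.40). Bst2, which tethers budding viruses, fell by 2.31 and Irf7 by 1.14. Ifih1, the RNA sensor MDA5, went the other way and was at least 10-fold higher (adjusted p = 4.15e-06), as did Xaf1 (2.45 ± 0.60). Among 15 genes induced by interferon gamma 3 were higher and 5 lower (median -0.25, but 0.07 with 3 higher and 3 lower after normexp, -0.08 without graft array 3 and -0.42 without blood array 5). With the median of detected probes none was higher and 8 were lower. Irf1 fell by 1.31, a call lost after normexp (-0.79), and Tgtp2, an interferon-induced GTPase, by 2.58. Nlrc5, an activator of MHC class I genes, rose by 1.52 ± 0.47, a call lost under both scalings to detected probes (1.18 and 0.89), after quantile normalisation and in the deposited table (0.95 in both). MHC class I genes were lower in 5 of 10 and higher in 1, or lower in 3 after quantile normalisation. H2-Q4 fell by 2.43, Tap2, a subunit of the peptide transporter, by 1.12, and B2m was not called (0.27 ± 0.35). The similar sequences of MHC class I genes and of the GTPase families make assignment to a single member uncertain.

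Of 19 glycolysis genes, 13 were higher and 1 lower (median 1.37, or 0.75 with 11 higher when scaled to the median of detected probes). Hk2, the hexokinase induced in proliferating cells, lay at -2.16, -2.66, -2.67 and -2.56 in the graft, below background, and at 1.44, 2.40, 1.76, 0.81 and 1.49 in blood, at least 7.58-fold higher. Slc2a1, the glucose transporter GLUT1, rose by 3.10 ± 0.43 (adjusted p = 3.57e-06), and Tpi1 and Pgk1 by 2.71 ± 0.21 and 2.22 ± 0.28, although a second Tpi1 probe differed by 0.12. Ldha, lactate dehydrogenase, rose by 1.08 ± 0.24, with probes from -0.84 to 1.50, and lost its call when scaled to the median of detected probes (0.46). In the pentose phosphate pathway 2 of 6 were higher, G6pdx (1.37 ± 0.29) and Pgd (1.69 ± 0.24), and 1 was lower, Taldo1 (-0.75 ± 0.21), a call lost after normexp (-0.28).

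Mitochondrial pathways were next. Tricarboxylic acid cycle genes were higher in 15 of 20 and lower in 1 (median 0.93), with Idh3a up by 2.25 ± 0.25 and Cs, citrate synthase, by 1.34 ± 0.23. All 72 listed respiratory chain and ATP synthase genes were tested: 45 were higher and 4 lower (median 0.84). Scaled to the median of detected probes, 9 cycle genes were higher and 3 lower (median 0.31), and 25 chain genes were higher and 10 lower (median 0.22). Uqcrc1, of complex III, lay at 2.55, 2.40, 2.15 and 2.89 in the graft and at 4.97, 5.31, 5.79, 5.67 and 5.50 in blood, without overlap (difference 2.95 ± 0.27, adjusted p = 1.44e-08). Ndufa6, of complex I, fell by 1.46. Fatty acid oxidation genes were higher in 12 of 16 and lower in 1 (median 1.41), with Cpt1a, the rate-limiting transferase, at least 12.4-fold higher by its stronger probe and -0.09 by its other probe, and Acadl up by 3.10 ± 0.37. Of 13 cholesterol genes 6 were higher and none lower. Their median of 0.52 was -0.10, with 1 higher and 2 lower, when scaled to the median of detected probes and 0.83 without graft array 3.

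The protein synthesis machinery split by compartment. Of 72 tested mitochondrial ribosomal protein genes, 57 were higher and 1 was lower, with a median of 1.19 (35 higher and 4 lower with the median of detected probes). Mrpl27 lay at 1.80, 1.97, 1.54 and 1.83 in the graft and at 4.10, 4.08, 4.53, 4.12 and 4.25 in blood, without overlap (difference 2.43 ± 0.23), and Mrps35 was the 1 that fell (-1.37 ± 0.21). Of 79 tested cytosolic ribosomal protein genes, 3 were higher and 21 lower, with a median of -0.46. That count depended on the scaling: 60 were lower with the 75th percentile of detected probes, 71 with their median, 13 after quantile normalisation, where the median was 0.02, and 3 after normexp, where the median was -0.06. Rpl21 fell by 2.45 by one probe and was 0.80 higher by another, and many ribosomal protein genes have near-identical pseudogenes, so single members are uncertain. The median of the mitochondrial list stayed above that of the cytosolic list under each of the 5 other scalings (0.85 against -0.80, 0.56 against -1.08, 0.70 against 0.02, 1.27 against -0.06 and 0.70 against 0.02).

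Other genes of protein synthesis and turnover were grouped in 3 lists. Aminoacyl-tRNA synthetases, which charge tRNAs, were higher in 13 of 15 and lower in none (median 1.69). Iars, for isoleucine, was at least 10.8-fold higher and Gars, for glycine, lay at 4.47 to 4.89 in the graft and at 6.22 to 6.27 in blood (1.55 ± 0.21). Ribosome biogenesis genes were higher in 19 of 30 and lower in 3 (median 0.97), with Bop1 up by 1.84 ± 0.20. Myc, a transcription factor known to drive many of these genes, was above background on 1 graft and 2 blood arrays and was not called (-0.12 ± 0.91, adjusted p = 0.921). Npm1, nucleophosmin, fell by 0.97, but its 5 probes ran from -0.97 to 2.81 and their mean gave 0.85. Proteasome genes were higher in 22 of 35 and lower in 3 (median 0.83), with Psmd7 up by 1.97 ± 0.20. Scaled to the median of detected probes, 12 ribosome biogenesis genes (median 0.35) and 13 proteasome genes (0.21) were higher.

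Amino acid genes gave single large differences. In the list of amino acid synthesis and ATF4 targets 10 of 17 were higher and 2 lower (median 1.32). Asns, asparagine synthetase, lay at -2.73, 0.09, -3.32 and -2.68 in the graft and at 3.42, 3.94, 4.41, 3.02 and 4.95 in blood (difference 6.11 ± 0.55, adjusted p = 1.32e-08). The serine pathway enzymes Phgdh, Psat1 and Psph rose by 2.13 ± 0.30, 4.22 ± 0.38 and 2.74 ± 0.32. Gldc, of the glycine cleavage system, was below background on every graft array and at least 59.3-fold higher in blood, at 4.33, 4.68, 5.16, 5.20 and 3.37. Atf4 itself was not called (-0.64 ± 0.27), although it was in 10 of 24 alternatives, among them both scalings to detected probes (-0.97 and -1.26) and without graft array 1 (-0.73) or blood array 1 or 2 (-0.74 and -0.76), and Atf5 fell by 1.04 (adjusted p = 0.0215), a call lost without graft array 2 (-0.87), without blood array 2 (-0.92) or after normexp (-0.63). Nutrient transporters were higher in 8 of 13 and lower in 1, Slc1a4, which has a GT-run probe. The nucleoside transporter Slc29a1 rose by 2.71 ± 0.30 and the glutamine transporter Slc1a5 by 1.60 ± 0.41.

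Metallothioneins and zinc genes were higher in 7 of 10 and lower in none (median 1.33), or higher in 4 and lower in 1 with the median of detected probes. Mt2, a metal-binding protein, lay at -1.11, -2.50, -3.14 and -2.44 in the graft and at 3.27, 3.77, 5.24, 4.82 and 2.35 in blood, at least 36.7-fold higher, and Mt1 rose by 3.50 ± 0.56, although its other probe gave -0.67. Annexins, S100 proteins and galectins were higher in 12 of 16 and lower in 1 (median 1.30), with Lgals1, a galectin of activated T cells, up by 1.33 ± 0.31 and Lgals3 by 2.91 ± 0.39. Anxa1, the exception, lay at 5.30, 4.67, 3.74 and 4.35 in the graft and at -0.53, -0.59, 0.54, 0.95 and -0.88 in blood, a fall of 4.62 (adjusted p = 1.71e-05). Anxa1 is also abundant in neutrophils, whose markers fell as given above, and a link between these falls was not tested.

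Stress and survival genes were mixed. Among heat-shock genes 5 of 16 were higher and 2 lower (median 0.38, but -0.24 with 3 higher and 5 lower when scaled to the median of detected probes). Hspa1a, the inducible HSP70, was above background on every graft array and on no blood array (at least 11.9-fold lower), while Hsp90aa1 rose by 1.76 ± 0.21. Chaperonin subunits were higher in 5 of 7 and lower in 1 (median 0.95), or higher in 3 and lower in 2 under scaling to detected probes and after quantile normalisation, with Tcp1 up by 2.27 ± 0.27. Among 17 unfolded protein response genes 3 were higher and 3 lower (median 0.39, negative with 7 lower when scaled to the median of detected probes, negative after quantile normalisation, and 0.23 without blood array 2). P4hb, a disulfide isomerase, rose by 2.65 ± 0.29, and Dnajb9, a chaperone, was at least 3.76-fold lower. In the BCL2 family and caspases 6 of 18 were higher and 1 lower. Their median of 0.31 was negative in 3 scalings (-0.03 and -0.32 with detected probes and -0.27 after quantile normalisation, with 2, 4 and 3 lower) and 0.13 without blood array 4. Bcl2a1d rose by 2.79 ± 0.35, while Bcl2 (-0.91 ± 0.47) and Mcl1 (0.34 ± 0.34) were not called. Bcl2 was called lower in 4 scalings (-1.25 to -1.53), and Mcl1 was called higher with the mean of its probes (1.52). Close copies of Bcl2a1d exist in the mouse, so this probe may measure several of them.

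**Figure D4:**
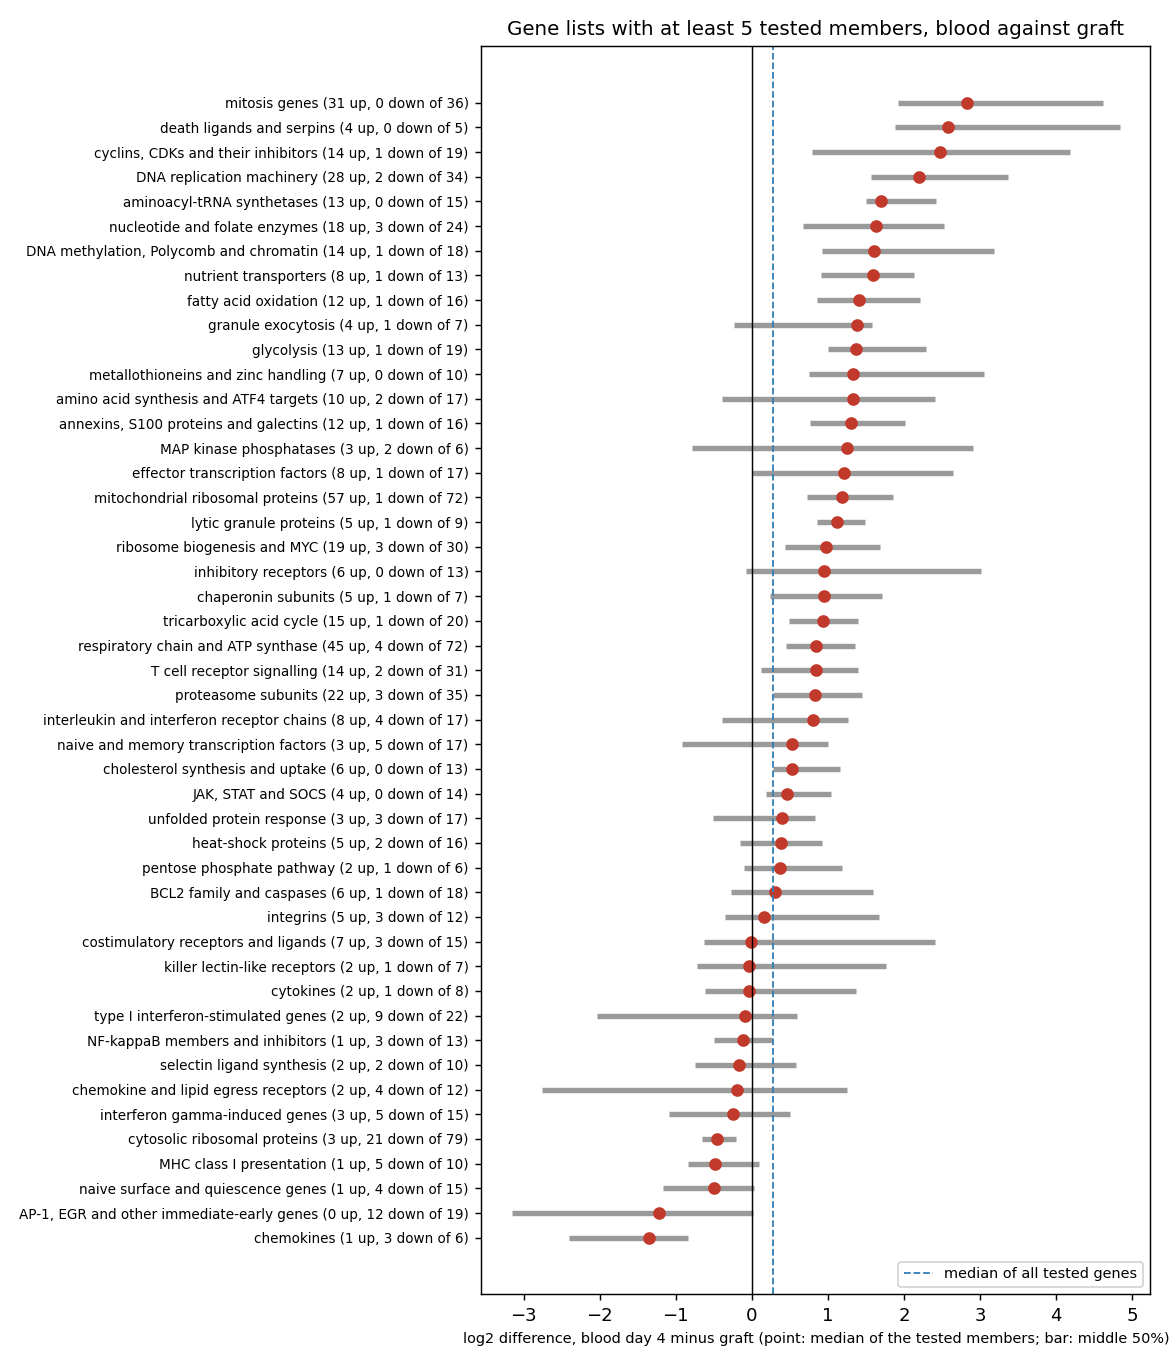
Median log2 difference, blood minus graft, of the tested members of each list with at least 5 of them (point) with the middle 50% of members (bar), and the counts of members called higher (up) and lower (down) beside each name. The dashed line is the median of all tested genes, 0.28, from which mitosis genes (2.83) lie farthest above and chemokines (-1.35) farthest below among the lists drawn, which leave out the marker lists of other cells.

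In the mitosis, DNA replication, mitochondrial ribosomal and immediate-early lists, blood samples varied among themselves less than they differed from the graft. As the median deviation of the list from the graft mean, mitosis genes reached 3.18, 3.49, 2.91, 2.28 and 3.15 on blood arrays 1 to 5, and the graft arrays stayed between -0.16 and 0.41. DNA replication genes reached 2.00, 2.15, 2.30, 2.06 and 2.52, and mitochondrial ribosomal proteins 0.85, 1.09, 1.49, 1.25 and 1.38. Immediate-early genes ran from -1.77 on blood array 4 to -0.67 on blood array 2. In both groups no array of these lists crossed into the range of the other group. Other lists did overlap, among them cytokines (-0.54 to 0.36 in blood and -0.26 to 0.24 in the graft). Killer lectin-like receptors (-0.21 to 0.84 and -0.47 to 0.48) and interferon-stimulated genes (-0.61 to 0.17 and -0.22 to 0.41) overlapped as well. The median SD of a gene was 0.420 over the blood arrays and 0.300 over the graft arrays.

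The blood arrays also enter a comparison with the mean of liver, lung and small intestine on day 4, in which the graft mean does not enter, although the graft arrays share the estimate of spread. Day 4 arrays of the same number lay on one slide, so slide can be fitted here. Only 18 of 9499 genes (0.189%) were called, 13 higher in blood and 5 lower. With slide as a fixed block 4 were higher and 6 lower, and 9 of the 18 were called again, whereas with slide as a random block 151 were higher and 36 lower. Fos (-3.73), Cxcl10 (-3.36), Cd83 (-3.24), Dusp1 (-1.94) and Rhob (-1.17) were lower in blood than in the mean of the tissues on the log2 scale. All 5 were also lower in blood than in the graft, by 5.47, 3.27, 2.58, 2.79 and 2.00, a comparison that shares the blood arrays. Fos group means were 4.37 in the graft, 2.28 in liver, 3.26 in lung, 2.34 in intestine and -1.10 in blood. The 8 with the largest differences among those higher in blood were Haspin (2.77), Stil (1.83), Poc1b (1.67), Ints3 (1.59), Parpbp (1.44), Gemin5 (1.20), Mtfr1 (1.17) and Ubash3a (1.12). Haspin, a kinase that phosphorylates histone H3 in mitosis, lay at -2.45, -2.68, -3.15 and -2.44 in the graft, below background, and at 0.20, 0.40, 0.82, 0.97 and 1.11 in blood, and averaged -1.68 in liver, -2.30 in lung and -2.24 in intestine (adjusted p = 0.0015 against the tissues). Stil and Poc1b both act at centrioles. Stil lay from -1.09 to 0.61 in blood and from -1.78 to -0.20 in liver, with overlap. By limma, none of the 18 was called between blood and liver. There the adjusted p was 0.097 for Cd83, Dusp1 and Haspin, 0.245 for Cxcl10 and 0.401 for Fos and Rhob. It was 0.401 for Mtfr1, 0.409 for Poc1b and 0.99 for each of Stil, Ints3, Parpbp, Gemin5 and Ubash3a. Cxcl10 and Cd83 were not called between blood and lung either (limma adjusted p = 0.072 and 0.106). Of 24 alternatives, the call against the tissues was made in 23 for Haspin, Dusp1 and Rhob, 22 for Cd83 and Poc1b, 21 for Fos and Cxcl10, 20 for Stil, 16 for Mtfr1, 13 for Ints3, 12 for Ubash3a, 8 for Parpbp and 7 for Gemin5. Alternatives that leave out a graft array cannot change this difference, only the estimate of spread.

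These counts changed when single blood arrays were left out. Leaving out blood array 3 left 1 gene, Haspin, and leaving out blood array 5 left 2 higher and 3 lower. Without blood array 2 there were 5 higher and 5 lower, without blood array 4 there were 7 and 2, and without blood array 1 there were 17 and 5. Taken site by site, blood differed from liver in 0 genes by limma (306 genes, 3.22%, at an unadjusted p under 0.05), from lung in 147 (1.55%, 69 higher and 78 lower in blood) and from intestine in 1248 (13.1%, 1080 higher and 168 lower). Whether these 3 counts differ from one another was not tested.

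**Figure D5:**
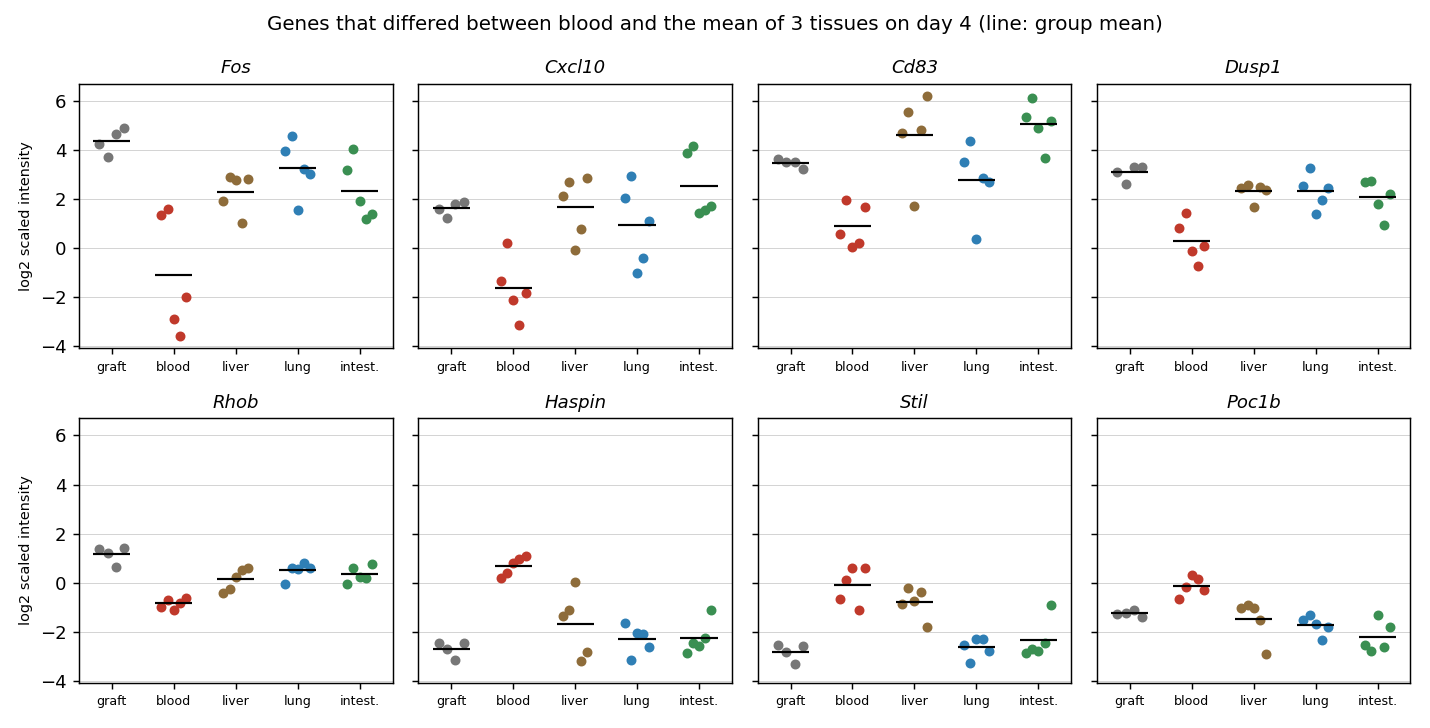
Log2 scaled intensity of 8 genes that differed between blood and the mean of 3 tissues, on 4 graft arrays and 5 arrays each of blood, liver, lung and intestine (points), with group means as lines. The 5 blood arrays of Haspin lie from 0.20 to 1.11, above every other array drawn for that gene, and the 5 blood arrays of Rhob lie from -1.10 to -0.61.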

How the data were processed

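Each array file was deposited as Agilent Feature Extraction output with 44397 spots, of which 1377 were controls. Its processed signal is a background-corrected intensity on a linear scale, per the file headers. The submitters' processing notes give the software version as 10.7, whereas the headers give 9.5.1.1. A log2 table was deposited by the authors as well. Over 39429 matched probes it correlated at 0.99977 or above with the quantile-normalised log2 signal minus each probe's median, so its values are relative to each probe's median, and it was used as an alternative only. No array carries sequencing depth, so the number of arrays limits the precision.

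Control and non-uniform spots were left out, spots of a probe were averaged, and log2 intensity was centred per array on the 75th percentile of its gene probes. Probes were named through RefSeq (GRCm38.p6): 27592 by accession, 3492 by symbol and 393 by synonym, while for 1624 the files' own name was used and 6328 stayed unnamed. Probe coordinates are those of the files (mm9), and no annotation of that build was used, so exon and UTR positions were not analysed here. A gene was tested if a probe was well above background on all, or all but 1, arrays of at least 1 of the 5 groups, and the probe with the highest mean represented it. limma 3.58.1 in R 4.3.3 fitted 1 mean per group to all 24 arrays, so that all groups share 1 estimate of spread, after a check on simulated data, with Benjamini-Hochberg adjustment. The main fit holds no block. Of the values of the tested genes on all 24 arrays, 6 were missing, none of them on a graft or blood array for a gene whose values the text gives.

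The compared groups, the 58 gene lists (1242 genes, 992 tested) and the rule for naming genes were chosen with earlier results of these data known. Named genes are the 10 highest and 10 lowest called genes without overlap, key members of each list, up to 4 called members with the smallest adjusted p, called members against the majority, and the 8 highest and 8 lowest genes against the tissues. Genes named for a repeat-run probe, and those whose promoter is printed, were chosen after their values were seen. Alternatives were other scalings, backgrounds, filters, probe rules, sample sets, variance settings and blocks, and each graft and blood array left out in turn.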

Additional observations from a re-analysis of the deposited data

Results flagged for a closer look

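Among 416 gene and group pairs of the genes named in the text, 17 held 1 array far from the others of its group by Dixon's test, which chance alone gives in about 1 in 20 groups. Graft array 2 was the high one for Aurka (0.53), Dut (-1.89), Mcm5 (1.66) and Slc29a1 (1.82), and graft array 4 for Gzmb (0.67) and Cd3e (5.78). Graft array 4 was also apart for Lgals1 (6.59), graft array 3 for Cs (3.86), Klrc1 (-1.77) and Xaf1 (-0.88), and graft array 1 for Ldha (6.20). Within the blood group, array 4 was apart for Il7r (3.14) and Ccl4 (1.93), array 1 for Ncaph (3.55) and Il4ra (-2.14), array 3 for Klf2 (4.30) and array 5 for Jak2 (2.27). All are log2 values relative to the array's 75th percentile.

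The difference from the graft was not the same in blood as in the mean of the 3 tissues for 13 named genes, tested as blood minus tissues in the limma fit with Benjamini-Hochberg adjustment. The naming rule took these genes from this same comparison, so the flag repeats the result given above and is no separate test. Fos (-3.73), Cxcl10 (-3.36), Cd83 (-3.24), Dusp1 (-1.94) and Rhob (-1.17) were lower in blood. Haspin (2.77), Stil (1.83), Poc1b (1.67), Ints3 (1.59), Parpbp (1.44), Gemin5 (1.20), Mtfr1 (1.17) and Ubash3a (1.12) were higher in blood. Of 24 alternatives, from 7 (Gemin5) to 23 (Haspin, Dusp1 and Rhob) made the same call. Those that leave out a graft array cannot change this difference.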

How the results depend on the processing

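Of 184 called genes named in the text, 162 kept direction and call in every one of the 24 alternatives that tested them, 20 lost the call in at least 1 and 2 changed direction in at least 1. Npm1 changed to 0.85 with the mean of its probes, and Tnfrsf9 to 1.20 with the mean of its probes and to 5.98 without repeat-run probes, an alternative added after seeing the data. Counts against the graft stayed within 1.5 times of 3349 higher and 2010 lower in every alternative except scaling to the median of detected probes, with 2227 higher and 3456 lower. Leaving out 1 array gave 3040 to 3379 higher and 1604 to 2111 lower. With a replicate block the counts were 3301 higher and 1953 lower against the graft and 7 higher and 5 lower against the tissues. The correlations of same-numbered blood and graft arrays (-0.202, 0.15, -0.409 and 0.148) do not pair the samples, and not every array correlated best with its own number.

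The 13 genes higher and 5 lower in blood than in the tissues moved more. Higher counts were 4 with the 75th percentile and 5 with the median of detected probes, 6 after quantile normalisation, 306 after normexp, 6 with the filter on all blood or all graft arrays, 1334 with array weights, 151 with slide as a random block and 4 with slide as a fixed block. Lower counts were 15 after normexp, 487 with array weights and 36 with slide as a random block. Leaving out 1 blood array gave 1 to 17 higher and 0 to 5 lower by limma. The cause of these changes was not tested. Genes below background in a group have only a bound there.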
